A study of Mus musculus with 12 samples.

Results

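The heat shock protein genes Cryab, Hspb1, Hspb8, Hspa1a, Hspa1b, Hspa8, Hsph1, Dnajb1, Hsp90aa1 and Hspd1 were followed from mouse colonic crypts to monolayers grown from them. They were chosen by symbol, with earlier results of these data known. All 10 were found as 1 row each among the 23420 genes of every count file. Total RNA was sequenced in 12 libraries, with 3 libraries each of monolayers at day 3, monolayers at day 4, monolayers at day 5 and crypts. Crypts came from a wild-type mouse aged 6 to 10 weeks. For monolayers, the crypt cells were grown on collagen and then moved to scaffolds cross-linked in a gradient, where the whole cell sheet was lysed. The labels name no drug, heat treatment or altered gene in any group. They record a resistance across the cell sheet of 526 ± 56 ohm cm2 at day 3, 623 ± 15 ohm cm2 at day 4 and 407 ± 53 ohm cm2 at day 5, with the kind of error left unnamed. Nothing in the sources used here says whether the libraries of a group were separate cultures or mice, so the p-values measure the spread between these samples, which may be technical.

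Heat shock proteins are molecular chaperones, which hold, fold or refold other proteins. Many of their genes are switched on by heat shock factor 1 when unfolded proteins build up, while constitutive members are made in all cells. In the cytosol, small heat shock proteins bind unfolding proteins without using ATP, HSP70 proteins fold them in ATP-driven cycles with J-domain and nucleotide exchange partners, and HSP90 proteins finish selected clients such as kinases and steroid receptors. Inside mitochondria, a chaperonin cage of HSP60 rings with an HSP10 lid folds imported proteins. The gut epithelium, which is renewed continuously from stem cells in the crypts, is a known site of inducible HSP70 and HSP25 expression.

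Heat shock factors bind arrays of the unit GAA and its reverse complement TTC, known as heat shock elements. The 250 bases upstream of the start site are shown for the 5 genes that held a pair of such units, among the 7 of the 10 with a window. Such a pair matches part of the known recognition sequence of the factor. Only Hspd1, 1 of the 7, also held 3 alternating units. The windows come from RefSeq (build GRCm38.p6), run 5′ to 3′ on the gene's strand, and carry the paired units, GAANNTTC or TTCNNGAA, in capitals. Hspa1a (minus strand, chr17:34972157-34972406) and Hspa1b (minus strand, chr17:34959239-34959488) encode the inducible HSP70, Hspb1 (plus strand, chr5:135887669-135887918) encodes the small heat shock protein HSP25, Hsph1 (minus strand, chr5:149636337-149636586) encodes HSP110, and Hspd1 (minus strand, chr1:55087933-55088182) encodes HSP60.
Hspa1a: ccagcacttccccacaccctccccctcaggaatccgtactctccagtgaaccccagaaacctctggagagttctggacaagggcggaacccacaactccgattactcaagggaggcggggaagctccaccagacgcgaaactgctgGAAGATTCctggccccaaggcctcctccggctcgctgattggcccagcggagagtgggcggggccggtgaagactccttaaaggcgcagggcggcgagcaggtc
Hspa1b: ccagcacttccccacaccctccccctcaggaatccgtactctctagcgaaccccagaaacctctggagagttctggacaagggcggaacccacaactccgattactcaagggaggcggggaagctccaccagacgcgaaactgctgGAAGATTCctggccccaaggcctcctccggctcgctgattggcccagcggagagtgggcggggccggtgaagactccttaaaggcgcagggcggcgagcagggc
Hspb1: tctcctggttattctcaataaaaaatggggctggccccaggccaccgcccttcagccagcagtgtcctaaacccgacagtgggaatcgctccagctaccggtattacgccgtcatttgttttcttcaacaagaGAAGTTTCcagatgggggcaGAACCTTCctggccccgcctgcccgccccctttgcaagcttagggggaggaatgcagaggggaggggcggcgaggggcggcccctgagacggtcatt
Hsph1: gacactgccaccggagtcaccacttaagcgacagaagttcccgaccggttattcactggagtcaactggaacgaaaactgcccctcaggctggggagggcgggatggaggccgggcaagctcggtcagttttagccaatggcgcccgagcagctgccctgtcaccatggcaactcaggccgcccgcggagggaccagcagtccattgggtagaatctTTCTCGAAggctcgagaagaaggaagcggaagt
Hspd1: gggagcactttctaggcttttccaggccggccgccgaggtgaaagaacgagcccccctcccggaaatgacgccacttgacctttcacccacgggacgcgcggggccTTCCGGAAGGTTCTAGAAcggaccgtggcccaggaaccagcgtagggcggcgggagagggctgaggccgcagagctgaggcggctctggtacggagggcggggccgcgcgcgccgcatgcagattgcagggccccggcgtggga

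Of the 10 genes, 7 were matched in the promoter table, and 5 of these 7 held a pair. The patterns GAANNTTC and TTCNNGAA, with N for any base, each read the same on both strands. Of all 32851 windows of this length, 12.8% held a pair, as did at least 1 window of 14.5% of the 27025 genes listed. Hspa1a and Hspa1b carried theirs at bases -104 to -97 from the start site, in windows that differed at 3 of 250 positions. Hspb1 had a pair at -117 to -110 and another at -97 to -90, and Hsph1 had a pair at -33 to -26. Hspd1 had 3 overlapping pairs between -144 and -127, which form alternating units (GAANNTTCNNGAA or TTCNNGAANNTTC) of the kind found in 0.466% of all windows. The same bases lie at -89 to -72 of Hspe1, the gene of the HSP10 lid, which is transcribed away from Hspd1. A further RefSeq start site of Hspd1 had no pair in its window, and one of Hsph1 had the same pair further upstream. No pair was found in the windows of Hspb8 and Dnajb1, and Cryab, Hspa8 and Hsp90aa1 were not matched. These matches describe letters in a window and are not evidence of binding.

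**Figure D1:**
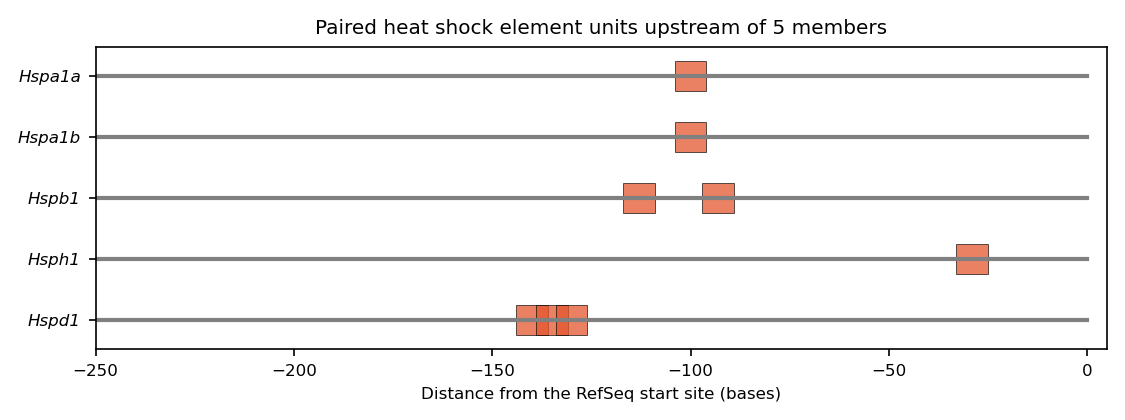
Position of the paired heat shock element units (orange boxes) in the 250 bases upstream of the RefSeq start site (0 on the x axis, in bases) of 5 heat shock protein genes, 1 line per gene. Hspa1a and Hspa1b share 1 position at -104 to -97, and the boxes of Hspd1 overlap between -144 and -127.

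Levels are in CPM, the counts of a gene relative to the TMM-scaled total of its library, and are set between genes only after division by exon length. Changes are log2 fold changes ± SE, and a gene was called at an edgeR adjusted p under 0.05. The reads in genes numbered 5456913 to 14290393 per monolayer library and 4518314 to 9939045 per crypt library. All 8 epithelial markers were detected in both, with the epithelial adhesion gene Epcam at 1478 ± 444 CPM in monolayers (SD, n = 9) and 1707 ± 204 CPM in crypts (n = 3). By day, Epcam averaged 1010 CPM at day 3, 1425 CPM at day 4 and 1998 CPM at day 5. The 8 markers were split, with 3 called higher and 4 lower in monolayers, beside 30.7% and 32.8% of all genes tested. Krt18 (2.15) and Krt19 (0.50) were among the higher, and Cdx2 (-0.51), Vil1 (-0.45) and Epcam (-0.26) among the lower. The leukocyte gene Ptprc averaged 0.233 CPM in monolayers and 17.0 CPM in crypts, and 12 leukocyte markers summed to 24.6 to 54.6 CPM in monolayers and 22.9 to 47.6 CPM in crypts, with Cd52, Cd3g and Cd8a at 0 in monolayers and the macrophage gene Cd68 at 31.4 CPM in monolayers and 1.35 CPM in crypts. Endothelial markers (6 genes) summed to 0 to 0.867 CPM in monolayers and 1.62 to 3.92 CPM in crypts, and neuron and glia markers (8 genes) to 2.90 to 6.82 CPM in monolayers and 2.74 to 4.61 CPM in crypts. The part of these cells in the results was not tested. The nuclear RNA Malat1 took 5.81 ± 0.169% of gene reads at day 3, 7.72 ± 0.328% at day 4, 11 ± 1.52% at day 5 and 2.21 ± 0.171% in crypts, and its part in the results was not tested. Day 5 replicate 1 stood apart from the other libraries on the second principal component of all genes. In RNA from whole samples, fewer cells of a type and less RNA per cell cannot be told apart.

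Against crypts, monolayers had much more mRNA of the small heat shock proteins Cryab and Hspb1. They had 2.21-fold and 2.07-fold as much mRNA of the cytosolic chaperones Hspa8 and Hsp90aa1, and less of the mitochondrial chaperonin Hspd1. The inducible pair Hspa1a and Hspa1b was called higher at day 4 and day 5, and not at day 3. Of the 10 genes, 9 had enough reads to be tested. Of these, 6 were higher and 1 was lower in monolayers, while 30.7% of all 12863 genes tested were called higher and 32.8% lower. Among the 6, the call of Hspa1a held in only 5 of 12 fits that left out 1 library. The median log2 fold change of the 9 was 1.05, against -0.03 over all genes tested. The reads of all 10 genes summed to 2122 ± 136 CPM in monolayers (n = 9), against 1110 ± 109 CPM in crypts (n = 3). Per kilobase of exon, Hspa8 stood first with a mean of 253 CPM per kb in monolayers and 115 CPM per kb in crypts, and Hsp90aa1 followed with 167 CPM per kb in monolayers and 80.4 CPM per kb in crypts. Cryab came next in monolayers at 58.4 CPM per kb and last in crypts, where it had no read. Hspd1 had 41.3 CPM per kb in monolayers and 69.7 CPM per kb in crypts. The other 6 genes lay between 0.0491 and 17.3 CPM per kb in monolayers and between 0.0875 and 9.83 CPM per kb in crypts. This order was not corrected for reads without a unique place, which were left out of the counts. The share of 50-base stretches of a transcript that recur in other genes was 66.3% for Hspa1a, 52.7% for Hspa8, 19% for Cryab and 0% for Hsph1.

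**Figure D2:**
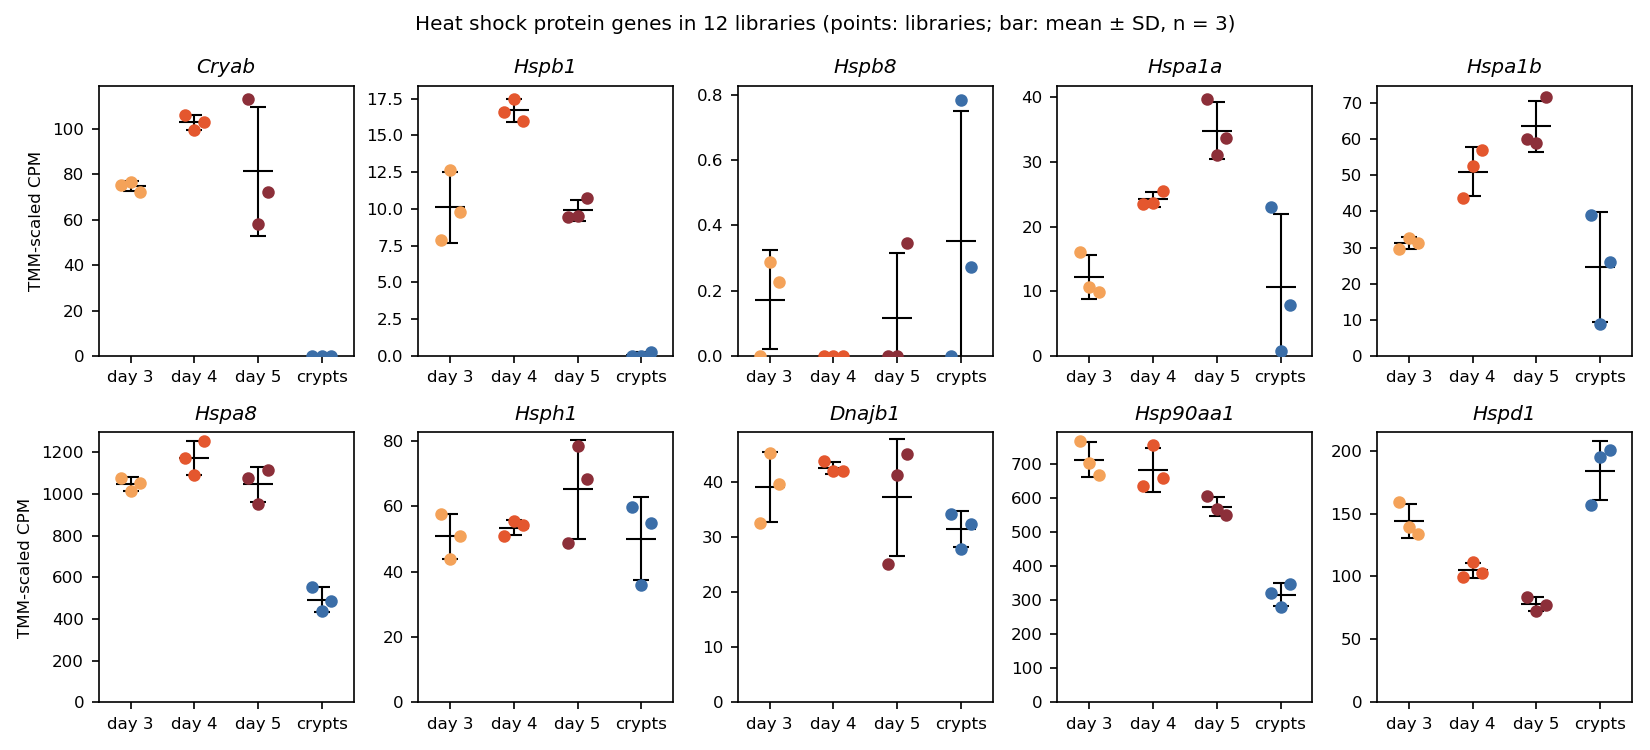
Level of each of the 10 heat shock protein genes (y axis, TMM-scaled CPM, its own scale per panel) in the 12 libraries, with monolayer days 3, 4 and 5 left of crypts. Points are libraries and bars the mean ± SD (n = 3). Cryab and Hspb1 lie at or near 0 in crypts, Hspd1 falls with each day, and Hspa1a and Hspa1b lie higher at each later day while the 3 crypt libraries scatter widely.

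Cryab, which encodes the small heat shock protein alpha-B crystallin, known for its role in lens and muscle, was detected in every monolayer library and in no crypt library. It reached 75.2, 76.8 and 72.4 CPM at day 3, 106, 99.5 and 103 CPM at day 4, and 113, 58.1 and 72.4 CPM at day 5, with 0 counts in all 3 crypt libraries. Every monolayer library was far above the crypts, and the day 5 libraries were spread the most. Taking 3 counts for the 3 crypt libraries together as the floor, monolayers were at least 667-fold higher (edgeR adjusted p = 1.02e-12), and the single days at least 592-fold, 815-fold and 589-fold higher at day 3, day 4 and day 5. These bounds cover counting error only. The neighbouring small heat shock protein gene Hspb2 overlaps Cryab by 1283 bases in the annotation and had 7 counts over all monolayers and 0 in crypts, so few reads were assigned to it. Markers of smooth muscle and fibroblasts, cells in which Cryab is also expressed, summed to 0.799 to 5.04 CPM over 13 genes in monolayers and 14.4 to 88.5 CPM in crypts. Of those markers Dcn and Lum had no read in monolayers, Acta2, Cnn1 and Actg2 had none in crypts, and the muscle gene Des had 3 counts in all monolayers and 2 in all crypts.

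Hspb1, whose product HSP25 binds unfolding proteins and actin, was the other small heat shock protein gene with a large difference. It had 7.89, 12.6 and 9.78 CPM at day 3, 16.6, 17.5 and 16.0 CPM at day 4, and 9.47, 9.51 and 10.7 CPM at day 5, against 0, 0 and 0.271 CPM in crypts. The day 4 libraries stood above all others, and the crypts held 3 counts in all, from a single library. The ratio of pooled CPM between monolayers and crypts was 98.1, with an exact 95% interval of 33.5 to 476 that covers counting error only (edgeR adjusted p = 1.68e-09). By day this ratio was 81.8 (27.8 to 398) at day 3, 133 (45.1 to 645) at day 4 and 77.7 (26.2 to 380) at day 5. In the annotation, 51.6% of the 50-base stretches of the Hspb1 transcript also occur in another gene, mostly its pseudogene Hsp25-ps1, and reads without a unique place were left out of the counts.

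Hspb8, which works with the cofactor BAG3 in chaperone-assisted autophagy, was barely detected. It had 0, 4 and 3 counts at day 3, 0 in every library at day 4, 0, 0 and 2 at day 5, and 0, 6 and 3 in crypts. With 9 counts in all monolayers and 9 in all crypts, it did not pass the filter on low counts and was not tested. Its ratio of pooled CPM, monolayers over crypts, was 0.265 with an exact 95% interval of 0.0932 to 0.753, which covers counting error and not the spread between libraries. Of the other 8 small heat shock protein genes none was called by edgeR, and only 2 of them had enough reads for the test. One was Hspb6, at 1.71 ± 0.929 CPM in monolayers and 1.36 ± 0.878 CPM in crypts (log2 fold change 0.41 ± 0.73, edgeR adjusted p = 0.645).

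The inducible HSP70 genes Hspa1a and Hspa1b were called higher than in crypts at day 4 and at day 5, and not at day 3. Hspa1b had 29.5, 32.8 and 31.1 CPM at day 3, 43.6, 52.4 and 56.9 CPM at day 4, and 60.1, 58.9 and 71.6 CPM at day 5, against 39.1, 8.74 and 26.0 CPM in crypts. The day 4 and day 5 libraries all lay above the 3 crypt libraries, the day 3 libraries lay among them, and the crypts differed most among themselves. Hspa1b rose in monolayers by 0.95 ± 0.26 (edgeR adjusted p = 0.00362), with 0.37 ± 0.30 at day 3 (0.308), 1.08 ± 0.30 at day 4 (0.0049) and 1.40 ± 0.30 at day 5 (0.000674). Hspa1a had 16.1, 10.6 and 9.93 CPM at day 3, 23.5, 23.7 and 25.6 CPM at day 4, and 39.7, 31.1 and 33.6 CPM at day 5, against 23.0, 0.783 and 7.94 CPM in crypts. Crypts replicate 2 was the lowest of the 12 libraries and crypts replicate 1 lay close to the day 4 libraries. The difference of Hspa1a was 1.12 ± 0.46 over all monolayers (edgeR adjusted p = 0.0392), 0.29 ± 0.53 at day 3 (0.667), 1.28 ± 0.52 at day 4 (0.0444) and 1.80 ± 0.53 at day 5 (0.00719).

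The call of Hspa1a over all monolayers rested on single libraries. It was lost without crypts replicate 2 (0.56) or replicate 3 (0.97), without day 3 replicate 1 (1.05), without day 4 replicate 1 (1.13), replicate 2 (1.13) or replicate 3 (1.11) and without day 5 replicate 3 (1.13), and without crypts replicate 1 it stood at 2.22. Library totals (0.93) and DESeq2 (1.009) in place of the TMM factors and edgeR lost it too. At day 4 the call was lost with RLE factors (1.25), library totals (1.10), DESeq2 (1.17) or a fit of the 2 groups alone (1.26), and of the fits that left out 1 library it held only without crypts replicate 1 (2.38) or day 5 replicate 1 (1.30), whereas the day 5 call held in 12 of 12 such fits, from 1.24 to 2.90, and was lost with DESeq2 (1.69). For Hspa1b the calls over all monolayers (0.54 to 1.39), at day 4 and at day 5 held in 12 of 12, and at day 3 Hspa1b (0.81) and Hspa1a (1.39) were called without crypts replicate 1. Both genes were lower at day 3 than in crypts without crypts replicate 2, at -0.03 for Hspa1b and -0.28 for Hspa1a, with neither called.

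Hspa1a and Hspa1b lie 10120 bases apart on chromosome 17 and are near-identical. In the annotation 58.8% of the 50-base stretches of Hspa1a recur in Hspa1b, so their reads can be exchanged or lost, and their sum was tested as well. The sum was 43.3 ± 2.23 CPM at day 3, 75.2 ± 7.72 CPM at day 4, 98.3 ± 7.70 CPM at day 5 and 35.2 ± 26.3 CPM in crypts (SD, n = 3 each). It was higher in monolayers by 1.0 ± 0.30 (edgeR adjusted p = 0.00679), with 0.34 ± 0.34 at day 3 (0.419), 1.13 ± 0.34 at day 4 (0.0088) and 1.52 ± 0.35 at day 5 (0.00106). Hspa1a took 24.2 to 39.8% of the reads of the pair in monolayers, and 37.1, 8.22 and 23.4% in crypts replicates 1, 2 and 3. The share of 8.22% rests on 6 of 73 reads, with an exact 95% interval of 3.08 to 17.0%.

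Hspa8 encodes HSC70, the constitutive HSP70 that folds newly made proteins and uncoats clathrin vesicles. It had 1078, 1014 and 1055 CPM at day 3, 1173, 1093 and 1254 CPM at day 4, and 1075, 950 and 1113 CPM at day 5, against 555, 437 and 487 CPM in crypts. All 9 monolayer libraries lay above all 3 crypt libraries, and the days lay close together, with day 4 above day 3. Hspa8 was 2.21-fold higher in monolayers, a log2 fold change of 1.14 ± 0.08 (edgeR adjusted p = 6.12e-10), with 1.09 ± 0.09 at day 3, 1.25 ± 0.09 at day 4 and 1.09 ± 0.09 at day 5. It kept its call in each fit that left out 1 library, between 1.07 and 1.24.

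Neither HSP70 partner among the 10 genes was called. Hsph1, whose product HSP110 exchanges the nucleotide of HSP70, had 57.6, 44.0 and 50.9 CPM at day 3, 50.8, 55.4 and 54.4 CPM at day 4, and 48.8, 78.5 and 68.5 CPM at day 5, against 59.7, 35.9 and 54.9 CPM in crypts. The groups overlapped throughout. The difference was 0.17 ± 0.15 (edgeR adjusted p = 0.339), with an interval of 1.96 SE each way from -0.13 to 0.47, and its sign turned with library totals in place of TMM scaling (-0.01) and without crypts replicate 2 (-0.02). Dnajb1, whose J-domain protein hands clients to HSP70, averaged 39.7 ± 6.66 CPM in monolayers (n = 9) and 31.5 ± 3.33 CPM in crypts (n = 3). Its lowest library was day 5 replicate 1 at 25.2 CPM, while the other 8 monolayer libraries had 32.5 to 45.3 CPM and the crypts 27.8 to 34.3 CPM. The difference of 0.34 ± 0.15 missed the threshold (edgeR adjusted p = 0.0650; interval 0.03 to 0.64), and it was called without day 3 replicate 1 (0.38), without day 5 replicate 1 (0.41) or with no filter on low counts (0.35). At day 4 alone, where all 3 Dnajb1 libraries lay above the crypts, it was 0.44 ± 0.18 (edgeR adjusted p = 0.0504), and several fits that left out 1 library called it, up to 0.50 without crypts replicate 1. At day 5, Dnajb1 was at 0.26 ± 0.19 (edgeR adjusted p = 0.258), and without day 5 replicate 1 it was called at 0.47 (0.0193). At day 5, Hsph1 stood at 0.39 ± 0.18 (edgeR adjusted p = 0.0753), which was called without day 5 replicate 1 (0.57), without crypts replicate 1 (0.53) or with no filter (0.40).

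Hsp90aa1 encodes the inducible cytosolic HSP90 isoform. It had 768, 702 and 666 CPM at day 3, 634, 755 and 657 CPM at day 4, and 606, 568 and 551 CPM at day 5, against 322, 280 and 346 CPM in crypts. All monolayer libraries lay above all crypt libraries, days 3 and 4 overlapped, and the day 5 libraries were the lowest of the monolayers. Hsp90aa1 was 2.07-fold higher in monolayers, a log2 fold change of 1.05 ± 0.08 (edgeR adjusted p = 2.39e-09), with 1.17 ± 0.10 at day 3, 1.11 ± 0.10 at day 4 and 0.86 ± 0.10 at day 5. Its constitutive relative Hsp90ab1 rose by 0.61 ± 0.07 (edgeR adjusted p = 6.99e-07), with 3669 ± 449 CPM in monolayers (n = 9) and 2382 ± 311 CPM in crypts (n = 3). By day, Hsp90ab1 averaged 4102 CPM at day 3, 3780 CPM at day 4 and 3126 CPM at day 5. For Hsp90aa1 and Hspa8, 58.5% and 52.7% of the 50-base stretches of the transcript recur in other genes, so their counts are those reads that were placed uniquely.

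Hspd1 was the one gene of the 10 called lower. It had 159, 139 and 134 CPM at day 3, 99.7, 112 and 103 CPM at day 4, and 84.1, 72.9 and 77.5 CPM at day 5, against 157, 195 and 200 CPM in crypts. The crypts stood highest apart from crypts replicate 1, which lay just under day 3 replicate 1, and no library of day 4 or day 5 reached them. Hspd1 was 1.75-fold lower in monolayers, a log2 fold change of -0.80 ± 0.08 (edgeR adjusted p = 1.29e-07). The difference was -0.36 ± 0.11 at day 3 (edgeR adjusted p = 0.00822), -0.81 ± 0.11 at day 4 (3.51e-06) and -1.24 ± 0.11 at day 5 (2.09e-08), and without day 3 replicate 3 the day 3 value was -0.30 (0.0521). Hspe1, its HSP10 partner, starts head to head with Hspd1 and overlaps it by 96 bases. Hspe1 averaged 35.2 ± 6.87 CPM in monolayers (n = 9) and 59.9 ± 8.79 CPM in crypts (n = 3), a log2 fold change of -0.79 ± 0.12 (edgeR adjusted p = 1.05e-05), with -0.53, -0.73 and -1.11 at day 3, day 4 and day 5. The mitochondrial HSP70 gene Hspa9 was higher instead, by 0.61 ± 0.07 (edgeR adjusted p = 7.28e-07). Its mean also fell with each day, from 895 CPM at day 3 to 708 CPM at day 4 and 593 CPM at day 5, against 472 CPM in crypts. In the annotation, 44.8% of the 50-base stretches of Hspd1 recur in other genes, against 8.2% for Hspe1.

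**Figure D3:**
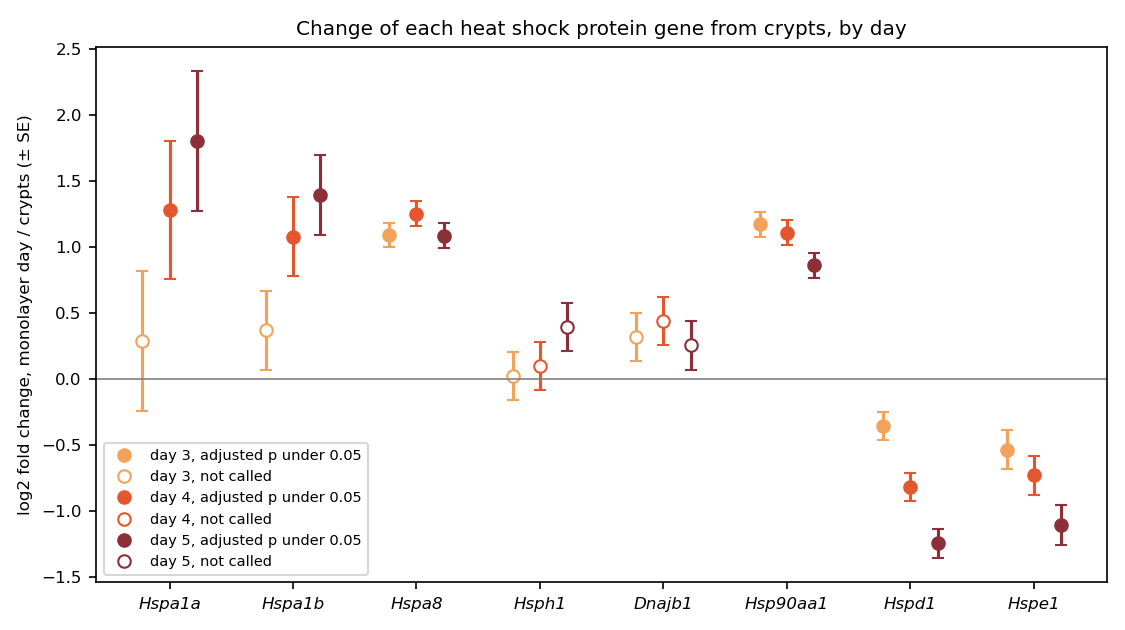
Log2 fold change against crypts (y axis, ± SE) at day 3, day 4 and day 5 for 7 heat shock protein genes and Hspe1. Filled points are called at an edgeR adjusted p under 0.05. At day 5 Hspa1a and Hspa1b reach 1.80 and 1.40, Hspa8 lies between 1.09 and 1.25, and Hspd1 and Hspe1 go down to -1.24 and -1.11.

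Each day was also set against the same crypts, so these comparisons share their controls. At day 3, 4 of the 9 genes were higher and 1 was lower, beside 28.4% of all genes called higher and 27.9% lower. At day 4 it was 6 higher and 1 lower (28.7% and 28.4% of all genes), and at day 5 6 higher and 1 lower (28.4% and 28.9%). The genes that joined after day 3 were Hspa1a and Hspa1b.

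Between the days, the inducible HSP70 genes and the chaperonin moved in opposite directions. At day 5 against day 3, Hspa1a rose by 1.51 ± 0.50 (edgeR adjusted p = 0.0399) and Hspa1b by 1.03 ± 0.29 (0.0167), while Hspd1 fell by 0.89 ± 0.11 (1.16e-05) and Hsp90aa1 by 0.31 ± 0.09 (0.0260). These are 2 genes higher and 2 lower of 9, beside 9.9% of all genes called higher and 10.5% lower. The libraries of the 2 days did not overlap for any of the 4 genes. As these genes were picked by their calls in the same comparison, this adds no support. The share of all genes without overlap was not counted. The summed Hspa1a and Hspa1b reads rose by 1.18 ± 0.33 (edgeR adjusted p = 0.0167), and Hspe1 fell by 0.57 ± 0.15 (0.0113). For Hspd1 each step was called as well, at -0.46 ± 0.11 for day 4 against day 3 (edgeR adjusted p = 0.0248) and -0.43 ± 0.11 for day 5 against day 4 (0.0219). It was the only call among the 9 genes in either step, beside 1.59% of all genes higher and 1.17% lower in the first step and 3.36% higher and 4.2% lower in the second. In the fit of all 12 libraries, the remaining pairs of days were not called for any of the other genes. Among them were Cryab at 0.46 ± 0.17 (edgeR adjusted p = 0.225) and Hspb1 at 0.72 ± 0.30 (0.264) for day 4 against day 3. Their day 4 libraries lay above all day 3 libraries. A fit of days 3 and 4 alone called 4 genes higher at day 4. These were Hspa1a (0.997, edgeR adjusted p = 0.00103), Hspa1b (0.703, 0.000543), Cryab (0.457, 0.000953) and Hspb1 (0.714, 0.0240). With no filter, Hspa1a (0.991), Hspa1b (0.704) and Cryab (0.455) were called. RLE factors, library totals, DESeq2 and a replicate block called none of the 4 for these days. A fit of days 4 and 5 alone called Hspb1 lower at day 5 (-0.757).

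Without day 5 replicate 1, the library that stood apart, the difference between day 5 and day 3 was 1.41 for Hspa1a, 1.06 for Hspa1b, -0.94 for Hspd1 and -0.35 for Hsp90aa1, and that of day 5 against crypts was 1.71, 1.44, -1.29 and 0.83 for the same genes in that order. Of these differences, that of Hspa1a between day 5 and day 3 was no longer called. For day 5 against crypts without this library, Hspa8 was at 1.07 and Hspe1 at -1.02, both called. With 3 libraries a day, single libraries decided several of these calls. Among these day differences, only the fall of Hspd1 at day 5 against day 3 held in all 12 fits that left out 1 library, from -0.94 to -0.81. For day 5 against day 3, Hspa1a was called in 3 of 12, those without a crypt library, and lost with DESeq2 (1.51), Hspa1b was lost without day 3 replicate 1 (0.99) or replicate 3 (1.02) or day 5 replicate 3 (0.93) and with DESeq2 (1.03), Hsp90aa1 was lost without day 3 replicate 1 (-0.25) or replicate 2 (-0.32) or day 5 replicate 2 (-0.30) or replicate 3 (-0.28), and Hspe1 was lost without day 3 replicate 1 (-0.53) or replicate 2 (-0.54). The step of Hspd1 to day 4 was lost without day 3 replicate 1 (-0.38), replicate 2 (-0.49) or replicate 3 (-0.51) or day 4 replicate 1 (-0.42) or replicate 3 (-0.45), and the step to day 5 without day 4 replicate 2 (-0.38) or replicate 3 (-0.44) or day 5 replicate 2 (-0.38) or replicate 3 (-0.42). Without day 5 replicate 1, Cryab was called between day 5 and day 4 (-0.67) and between day 4 and day 3 (0.46), and Hsph1 between day 5 and day 3 (0.53). Without crypts replicate 2, Hspa1a (1.0) and Hspa1b (0.71) were called for day 4 against day 3.

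The other genes of the chaperone network were taken from 8 lists by role, also chosen with earlier results of these data known. Of 82 that could be tested, 45 were higher and 17 lower in monolayers, with a median log2 fold change of 0.36, beside 30.7% of all genes higher, 32.8% lower and a median of -0.03. The cytosolic chaperonin CCT and its partner prefoldin, which fold actin and tubulin, had 11 of 13 genes higher and none lower, among them Pfdn2 at 1.32 ± 0.15 and Cct8 at 0.75 ± 0.08. At day 5 against day 3, 9 of these 13 were lower, beside 10.5% of all genes, among them all 8 CCT subunits, from -0.42 ± 0.10 for Cct8 to -0.68 ± 0.14 for Cct3. Of all 82 genes, 20 were lower and 4 higher at day 5 than at day 3, beside 10.5% and 9.9% of all genes tested. Against crypts, other HSP90 genes and co-chaperones had 9 of 15 genes higher and 3 lower. Ptges3, the p23 co-chaperone, rose by 1.16 ± 0.11, and Fkbp5, a steroid receptor co-chaperone that glucocorticoids induce, fell by 4.2 ± 0.21, to 6.64 ± 2.41 CPM in monolayers, against 119 ± 33.8 CPM in crypts. All of these single-gene values passed edgeR's adjusted threshold, the highest adjusted p being 0.00353, for Cct8 between the days.

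Beside the same shares of all genes, 30.7% higher and 32.8% lower, the J-domain list had 8 of 16 genes higher and 3 lower, with Dnajb5 at 2.12 ± 0.46 and Dnajc9 at -1.58 ± 0.25. Without crypts replicate 3, Dnajb5 stood at 3.53. The nucleotide exchange and other HSP70 cofactors had 6 of 9 higher and 2 lower, and the BAG family was split. Bag2 rose by 3.44 ± 0.26 (edgeR adjusted p = 1.17e-09) and Bag1 fell by 1.18 ± 0.09 (6.79e-10). Bag3, the partner of HSPB8, was at 0.26 ± 0.10 (edgeR adjusted p = 0.0303), but was not called with RLE factors (0.22), library totals (0.07) or DESeq2 (0.22), or without day 3 replicate 2 (0.25), crypts replicate 2 (0.18) or crypts replicate 3 (0.20). Among the other HSP70 and HSP110 genes, 3 of 6 were higher and 2 lower, with Hspa2 at 3.11 ± 0.28 and Hspa12a, an atypical member, at -4.31 ± 0.54. Of 14 mitochondrial chaperone and protease genes, 7 were higher and 5 lower, so that the lower share was near that of all genes. The protease gene Lonp1 was at 0.87 ± 0.09, Hspe1 at -0.79 ± 0.12 and the import motor gene Dnajc19 at -0.67, and Dnajc19 lost its call without day 3 replicate 1 (-0.65), day 4 replicate 1 (-0.63), day 4 replicate 2 (-0.65) or crypts replicate 1 (-0.42). Lonp1 was also lower at day 5 than at day 3, by 0.93 ± 0.10 (edgeR adjusted p = 2.03e-06). In this mitochondrial list, 5 of 14 genes were lower and 1 higher at day 5 than at day 3, beside 10.5% and 9.9% of all genes.

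**Figure D4:**
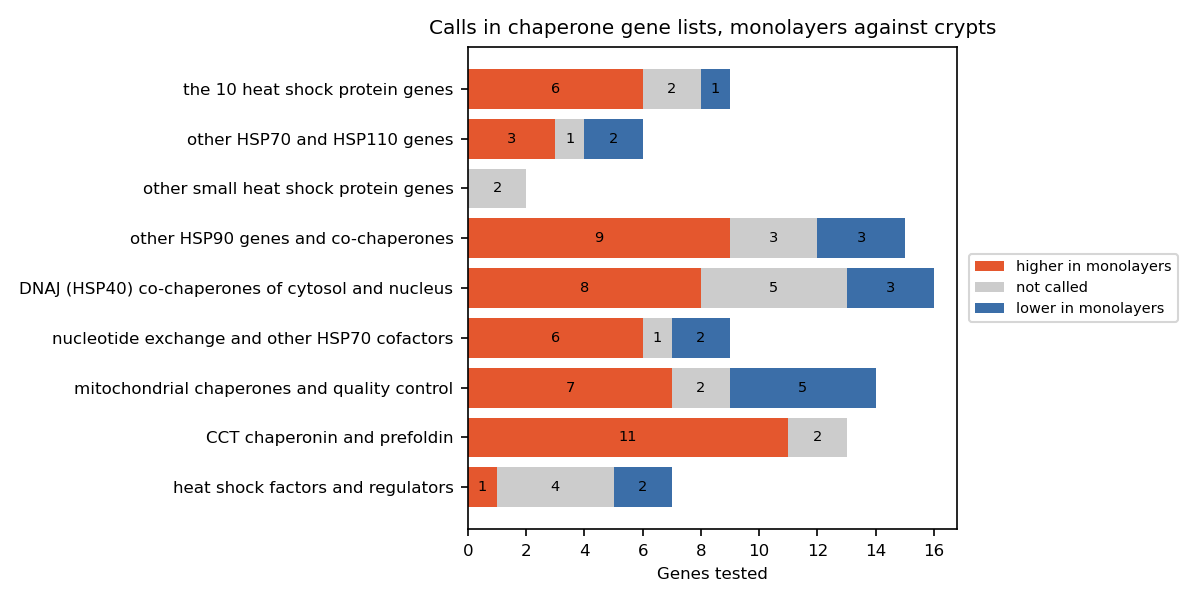
Number of genes tested (x axis) in the list of 10 heat shock protein genes and in 8 lists of other chaperones and regulators, split into those called higher in monolayers, not called, and called lower in monolayers against crypts. CCT and prefoldin has 11 higher and 0 lower, while the heat shock factors have 1 higher and 2 lower.

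Among the genes of heat shock factors and their regulators, 3 of 7 were called, 1 higher and 2 lower, beside 30.7% of all genes higher and 32.8% lower. Hsf1, the main factor of the heat shock response, had 16.7 ± 2.06 CPM in monolayers (n = 9) and 20.9 ± 3.06 CPM in crypts (n = 3), a log2 fold change of -0.32 ± 0.16 (edgeR adjusted p = 0.0933), which was called without day 5 replicate 1 (-0.36) and with library totals (-0.51). Hsf2 had 11.5 ± 3.65 CPM in monolayers and 10.6 ± 2.65 CPM in crypts (0.10 ± 0.28, edgeR adjusted p = 0.770). Hsf4 was higher at 2.27 ± 0.59, with 4.19 ± 2.42 CPM in monolayers and 0.839 ± 0.274 CPM in crypts, and Hdac6 (-0.70) and Vcp (-0.38) were lower. Hdac6 lost its call without crypts replicate 3 (-0.45), and Vcp without crypts replicate 1 (-0.19) or replicate 3 (-0.35); without crypts replicate 2 Vcp was at -0.58. Of 20 further genes known as heat shock factor 1 targets, 12 were higher and 2 lower, against the same shares of all genes, led by the heme oxygenase gene Hmox1 at 60.4 ± 13.8 CPM in monolayers and 1.26 ± 0.933 CPM in crypts (5.38 ± 0.26, edgeR adjusted p = 2.03e-12), which other stress pathways also induce. Immediate early genes, which respond to handling of cells within minutes, had 10 of 16 higher and 4 lower, again beside 30.7% and 32.8% of all genes. Ier3 led at 5.78 ± 0.18, and Egr1 (1.64) and Atf3 (1.51) were higher as well. Fos stood at -0.23 ± 0.09 (edgeR adjusted p = 0.0285), a call lost without day 3 replicate 3, day 4 replicate 2 or crypts replicate 2 (-0.10). By day, Fos averaged 141 CPM at day 3, 98.0 CPM at day 4 and 86.6 CPM at day 5, against 124 CPM in crypts. The part of that response in the heat shock results was not tested.

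Several of the 10 genes had other genes whose pattern over the 12 libraries was nearest to theirs, measured as the root mean square difference of log2 CPM after centring each gene, over 8963 genes with a mean of at least 8 CPM. For Cryab these were Clu (0.312), which encodes the secreted chaperone clusterin, and Il5ra (0.374). For Hspb1 they were Dusp4 (0.322) and Tnfrsf12a (0.376). Hsp90aa1 lay nearest to Gusb (0.0857) and Psmd8 (0.0972), and Hspa8 to Pawr (0.107) and Kdm3b (0.111). Hspd1 lay nearest to Nop58 (0.120) and Plp2 (0.149), with Hspe1 at 0.184 in position 18. Hspa1b was nearest to Per1 (0.323) and Fam69b (0.353), and Hspa1a to Slc22a4 (0.614) and Col20a1 (0.658), with Hspa1b in position 3 at 0.661. Hsph1 lay nearest to Pik3r2 and Nr2f2 (0.163 each), and Dnajb1 to Rrp7a (0.130) and Usp19 (0.135). The libraries share depth and group, so these distances are a description. A prior count of 2 was added for log2 CPM, which narrows the differences of genes near 0 counts, such as Cryab and Hspb1 in crypts. In the edgeR fit, the log2 fold change of monolayers against crypts was 8.48 for Clu and 12.73 for Il5ra, beside 12.65 for Cryab.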

How the data were processed

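Per the submitters' processing notes, the authors used CASAVA 1.9, TopHat2 and HTSeq, and the builds mm9 and mm10 are named without a role. The annotation behind the counts was not given in the sources used here, nor was the strand setting. The authors deposited raw read counts for 23420 genes in each of 12 files, 1 per library. The 5 summary lines of each file were left out; reads in no gene made up 40.2 ± 1.24% in monolayers and 47.3 ± 1.69% in crypts, and reads without a unique place 14.2 to 19.2%.

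Counts were tested with edgeR 4.0.16 (R 4.3.3) quasi-likelihood fits of all 12 libraries by group, with TMM factors, genes kept by filterByExpr (minimum count 10) and Benjamini-Hochberg adjustment over 12863 genes; adjusted p-values under 0.05 were called. The steps were first tested on simulated data, for monolayers against crypts only. That simulation had far fewer changed genes than were called here, and comparisons between days were not simulated. Alternatives were RLE factors, library totals, DESeq2 1.42.0, no filter, a replicate block, only the groups compared, and each library left out; a sum of Hspa1a and Hspa1b replaced the pair once. Bounds and ratios for Cryab, Hspb1 and Hspb8 use counts pooled over a group and a floor of 3 counts, and 95% intervals cover counting error only. Of the 12 pairs of libraries within a group, none agreed within sampling noise. Promoter windows came from RefSeq (GRCm38.p6), and exon lengths and shared stretches from GENCODE M21. Replicate numbers were not used to pair the samples in the fit of all 12 libraries. The 10 genes and all lists were chosen with earlier results of these data known. Named genes are the 10, up to 4 called genes of largest change from each list (mean level 1 CPM or more), and a set of regulators and partners taken whatever their value; the CCT subunits between days were added after their values were seen.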

Additional observations from a re-analysis of the deposited data

Results flagged for a closer look

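Differences between the days, each tested within the fit of all 12 libraries, stood out for 4 of the 10 genes. Hspd1 was lower at day 4 than at day 3 (log2 fold change -0.46), at day 5 than at day 4 (-0.43) and at day 5 than at day 3 (-0.89). At day 5 against day 3, Hspa1a (1.51) and Hspa1b (1.03) were higher and Hsp90aa1 (-0.31) was lower. Of these, the difference of Hspd1 at day 5 against day 3 was called in 12 of 12 fits that left out 1 library.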

How the results depend on the processing

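Calls among the 10 genes against crypts stayed within 1.5 times the counts given, at 6 to 8 over all monolayers in fits that left out 1 library. Between days they did not. For day 4 against day 3, the 1 call became 4 with no filter and 5 with only the groups compared, and 0 to 3 without 1 library; all genes called numbered 356, against 636 with no filter, 609 with DESeq2, 1144 with only the groups compared, and 94 to 490 without 1 library. For day 5 against day 4, the 1 call became 2 with only the groups compared and 0 to 2 without 1 library, and all genes called numbered 972, against 536 to 1207. For day 5 against day 3, the 4 calls became 2 with DESeq2 and 1 to 4 without 1 library. All genes called there numbered 2620, against 1811 to 2871 without 1 library, which stayed within 1.5 times. The other small heat shock protein genes had 1 call and endothelial markers 2 with no filter; without 1 library, smooth muscle and fibroblast markers had 3 to 7 calls and neuron and glia markers 0 to 1. The cause was not tested.

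Signs turned for differences that were not called. Hsph1 against crypts was -0.014 (library totals) over all monolayers and -0.018 to 0.31 without 1 library; at day 3 it was -0.014 (RLE), -0.15 (library totals), -0.015 (DESeq2) and -0.17 to 0.16; at day 4 it was -0.078 (library totals) and -0.092 to 0.23. Without 1 library, Hspa1a at day 3 was -0.28 to 1.39 and Hspa1b -0.033 to 0.81, Hsph1 for day 4 against day 3 -0.020 to 0.17, and Dnajb1 for day 5 against day 4 -0.33 to 0.018. For day 5 against day 3 these ranges were -0.18 to 0.16 for Hspb1, -0.21 to 0.31 for Cryab, -0.054 to 0.059 for Hspa8 (0.0016 with only the groups compared) and -0.22 to 0.13 for Dnajb1. Hsf2 was -0.082 with library totals and -0.089 to 0.26 without 1 library, and Hspb6 ranged from -0.050 to 0.91. Library totals put the median of all genes, monolayers against crypts, at -0.21, against -0.03 with TMM factors.

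With a replicate block no call among the 10 genes changed, at 7 over all monolayers, 5, 7 and 7 at day 3, day 4 and day 5 against crypts, 1 and 1 for the day steps and 4 for day 5 against day 3. Same-numbered libraries correlated between -0.0336 and 0.0585 in their deviations, so no pairing by number was seen. With few libraries per group, this cannot exclude a shared mouse, culture or batch. Hspb8 and Hspb1 in crypts are limited by depth, with 9 and 3 counts.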
